A study of Mus musculus with 30 samples.

Results

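The hepcidin and iron handling genes described here were 10 of the 55450 genes counted in mouse liver RNA, chosen for their function in iron metabolism and found by gene symbol. They were the hepcidin genes Hamp and Hamp2, the signalling genes Bmp6, Tfr2, Id1 and Smad7, the iron exporter Slc40a1, the iron importer Tfrc and the ferritin chains Fth1 and Ftl1. The study asked whether the hepatocyte transcription factor CEBPA affects how liver fibrosis develops during feeding with HFCFD, a diet rich in fat, cholesterol and fructose that is used to model steatohepatitis. Poly(A) RNA of whole liver was sequenced in 30 male mice, as 3 experiments of 5 control and 5 knockout mice each. All mice carried floxed Cebpa alleles, and the controls (Cebpa fl/fl) lacked Cre.

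In HFCFD2W, the knockouts (Cebpa ΔHep) carried an albumin-Cre transgene, which is active in hepatocytes from before birth, and both genotypes ate the diet for 2 weeks. In HFCFD8W+T10D, the knockouts (Cebpa ΔHep,ERT2) carried albumin-ERT2-Cre, which needs tamoxifen to act. By the labels both genotypes had 8 weeks of diet and 10 days of tamoxifen, which the paper places last. Whether the 8 weeks include those 10 days was not given in the sources used here. HFCFD12W+T10W used the same inducible Cre, and both genotypes were fed for 22 weeks, with tamoxifen over the final 10. The experiments therefore differed in Cre driver, diet length and tamoxifen together, and these cannot be told apart when experiments are compared. Ages were not given in the labels.

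Each library held 7996123 to 10257347 counts. Cebpa itself remained at 2.68%, 11.9% and 18.6% of its control level in the HFCFD2W, HFCFD8W+T10D and HFCFD12W+T10W knockouts, and no knockout mouse overlapped a control. All 7 hepatocyte markers were detected, with summed levels of 51539 to 163569 CPM (counts scaled to a common library size). Levels below are CPM scaled between libraries by TMM (a trimmed mean of log ratios), with the SD over 5 mice, and fold changes are log2 values of knockout over control with their standard error (SE). The test was edgeR's quasi-likelihood F test across all genes, and "called" means a Benjamini-Hochberg adjusted p under 0.05.

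Hepcidin is a peptide hormone that hepatocytes secrete when body iron is high or during inflammation. It binds ferroportin, the only known cellular iron exporter, which is encoded by Slc40a1, and causes its degradation, so that iron stays in macrophages, enterocytes and hepatocytes. Bone morphogenetic proteins (BMPs), chiefly BMP6 and BMP2 from the sinusoidal endothelium, drive Hamp through SMAD proteins together with the co-receptor hemojuvelin, HFE and TFR2. Interleukin-6 drives it through STAT3, and CEBPA is itself known as an activator of the hepcidin promoter. Id1 and Smad7 are other targets of the BMP signal, and SMAD7 feeds back to restrain it. Mice carry a second gene, Hamp2, beside Hamp, whose peptide is not known to act on iron. Inside the cell, iron regulatory proteins bind hairpins called iron response elements when iron is low, which blocks translation of ferritin and ferroportin and stabilises the Tfrc message.

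The promoters of Hamp and Hamp2 are shown because the largest spreads of any member within a group were theirs, with coefficients of variation up to 98.7% for Hamp2 and 86.0% for Hamp. Both genes lie on the minus strand of chromosome 7 in GRCm38, Hamp2 at chr7:30922372-30924681 and Hamp at chr7:30942368-30944032, with 17686 bases between them. Over the 250 bases before the transcription start, the RefSeq sequences were 92.0% identical, with 230 identical bases. The stretches below are Hamp at chr7:30944040-30944159 and Hamp2 at chr7:30924189-30924308, each 120 bases read 5′ to 3′ on the minus strand. The gene spans above are from GENCODE M21, whereas the stretches precede the RefSeq starts. For Hamp2 the GENCODE span begins further upstream, so its printed stretch lies inside that span. Capitals mark the 6 bases of the BMP response element core or its counterpart, and then the 9 bases of the STAT element.
Hamp promoter: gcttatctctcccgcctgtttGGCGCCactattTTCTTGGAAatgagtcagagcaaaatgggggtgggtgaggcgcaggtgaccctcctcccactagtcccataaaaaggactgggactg
Hamp2 promoter: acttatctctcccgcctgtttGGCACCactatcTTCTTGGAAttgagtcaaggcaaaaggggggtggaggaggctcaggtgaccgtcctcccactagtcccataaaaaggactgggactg
The 2 stretches differed at 11 positions. Counting from 1 at the 5′ end of the printed stretch, 1 of these, G25A (Hamp base first), fell in the BMP core, and 0 fell in the STAT element. The core letters GGCGCC were in 9.59% of 32851 mouse promoters and the STAT letters TTCNNNGAA in 7.02%, both strands searched, so neither is rare, and the matches in Hamp did not overlap. RefSeq windows were found for 7 of the 10 members. Among them GGCGCC was also found in Tfrc, the E-box CACGTG (6.02% of promoters) in Bmp6, and the C/EBP letters TTGCNNAA (9.56% of promoters) at 2 places in Fth1. These exact C/EBP letters were not found in the 250 bases searched before Hamp or Hamp2.

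Iron response elements are shown because the ferritin and Tfrc results concern transcripts that carry them. The search asked for a C, then 5 bases, the letters CAGTG, 1 further base, and 5 bases that pair with the first 5. It found 7 sites in 4 of the 9 members searched, against 1.34% of 21901 protein-coding genes with a site anywhere in a transcript. Each is printed 5′ to 3′ on the gene's strand as 29 bases from the GENCODE M21 transcripts. Capitals mark the hairpin loop, CAGTG and the base after it.
Fth1, 5′ UTR, chr19:9982732-9982760: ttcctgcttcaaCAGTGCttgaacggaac
Ftl1, 5′ UTR, chr7:45459779-45459807: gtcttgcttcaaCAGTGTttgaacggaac
Slc40a1, 5′ UTR, chr1:45925465-45925493: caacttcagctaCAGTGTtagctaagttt
Tfrc, 3′ UTR, chr16:32631219-32631247: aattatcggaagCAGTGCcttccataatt
Tfrc, 3′ UTR, chr16:32631598-32631626: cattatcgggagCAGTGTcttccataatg
Tfrc, 3′ UTR, chr16:32631663-32631691: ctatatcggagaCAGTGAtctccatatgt
Tfrc, 3′ UTR, chr16:32631710-32631738: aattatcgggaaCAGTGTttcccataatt
The single 5′ sites of both ferritin chains and ferroportin and the 4 sites of the Tfrc 3′ UTR follow the known arrangement of this system. A site in the message acts on translation or stability, and RNA counts report only the latter.

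The members spanned more than 3 orders of magnitude per unit length. In TPM, which counts transcripts per unit length and to a fixed library total, HFCFD2W controls had Ftl1 at 3581, Hamp at 2247 and Fth1 at 1789. Tfr2 stood at 157, Hamp2 at 89.2, Slc40a1 at 37.1 and Tfrc at 7.31 TPM. Id1, Smad7 and Bmp6 were near the low end at 2.23, 0.904 and 0.668 TPM. The message for the hormone was thus among those of the ferritins, while Bmp6, which hepatocytes themselves make little of, was low in these whole-liver libraries.

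**Figure D1:**
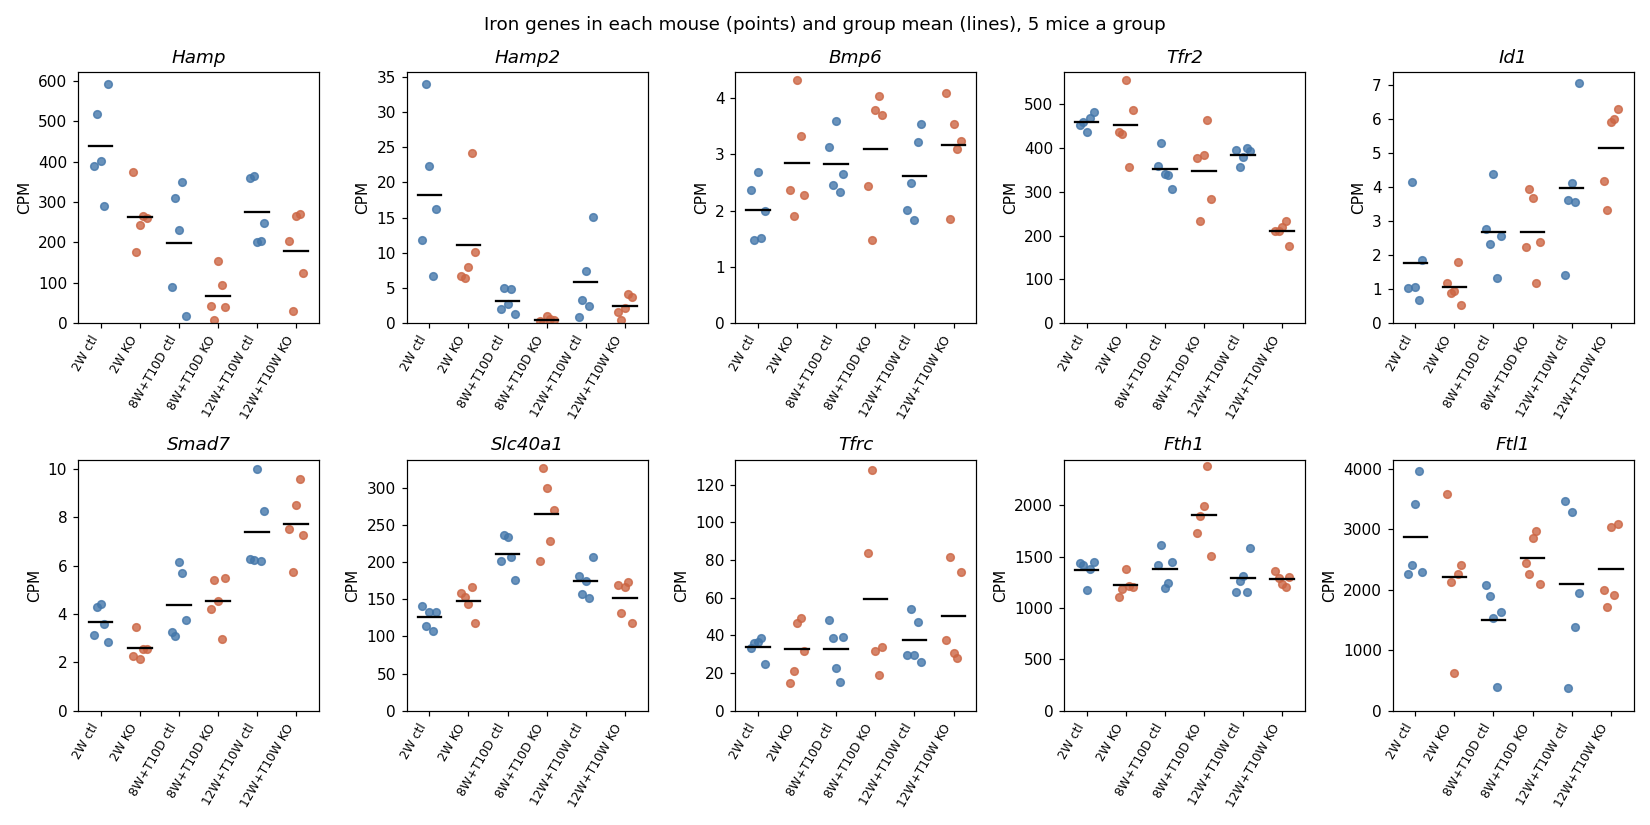
Each panel plots 1 gene in CPM (linear axis from 0) in the 6 groups, with 1 point per mouse, blue for control (ctl) and orange for knockout (KO), and a line at the mean of 5 mice. Hamp spread from 7.57 to 593 CPM over the 30 mice, and the Tfr2 points of the HFCFD12W+T10W knockouts lie below all of their controls.

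Of the 10 members, 1 was called in each experiment, and it was a different gene each time. Hamp fell in the constitutive knockout, Hamp2 fell after 10 days of tamoxifen, and Tfr2 fell after 10 weeks. Of these 3 genes, only Tfr2 was shown to differ in its genotype effect between experiments. In HFCFD2W, 1 of 9 members tested was called against 16.7% of all genes tested, in HFCFD8W+T10D 1 of 10 against 17.1%, and in HFCFD12W+T10W 1 of 10 against 51.1%. Each of these shares of members (11.1%, 10.0% and 10.0%) was below the share of all genes. Id1 was too low to be tested in HFCFD2W. The members that did not overlap between genotypes numbered 0 in HFCFD2W, 2 in HFCFD8W+T10D (Hamp2 and the Ftl1 row) and 1 in HFCFD12W+T10W (Tfr2), against 12.5%, 11.5% and 39.1% of genes tested. With a fold over 2 asked as well, 0, 1 (Hamp2) and 0 members passed, against 3.07%, 6.1% and 17.7%. All 3 called members were lower in knockouts, as were 8.09%, 6.85% and 23.8% of genes.

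**Figure D2:**
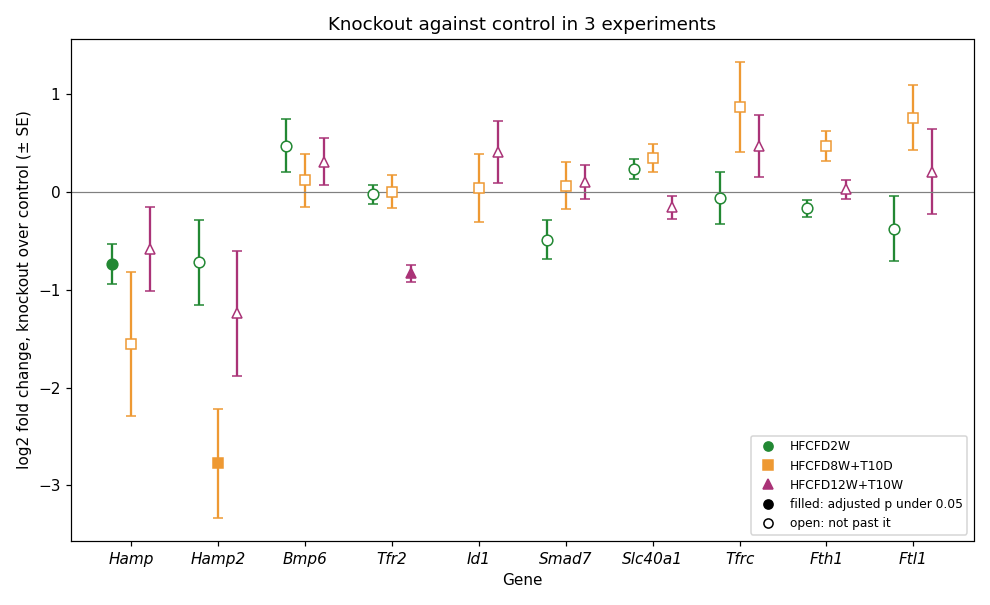
The vertical axis gives the log2 fold change of knockout over control, with bars of 1 SE, for each member in HFCFD2W (circles), HFCFD8W+T10D (squares) and HFCFD12W+T10W (triangles), 5 mice per genotype. Filled symbols passed the adjusted p of 0.05, and they are Hamp, Hamp2 and Tfr2, each in 1 experiment, while the Hamp value lies below 0 in all 3.

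Hamp, the hormone gene, was lower on average in the knockouts of every experiment and called in 1. In HFCFD2W the controls had 389.6, 517, 401, 291 and 593 CPM. The knockouts had 373, 177, 243, 265 and 259.5 CPM. The genotypes overlapped, since 1 knockout mouse at 373 lay above the lowest control, and the other 4 knockouts lay below all 5 controls. The mean fell from 438 ± 118 to 264 ± 70.6 CPM, which is 60.2% of control (log2 fold change -0.73, SE 0.20, adjusted p 0.0272). Whole liver was sequenced, so fewer cells of a type and less RNA per cell cannot be told apart. Of 7 hepatocyte markers in this experiment, 0 were called lower or higher, against 16.7% of all genes tested. The median log2 fold change of these markers was 0.14. The call did not outlast every smaller set of mice: without control mouse 2 or 5, or knockout mouse 3, 4 or 6, the adjusted p was 0.0517 to 0.0712. In the fit that shared 1 spread over all 30 libraries, it was 0.443.

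After 10 days of tamoxifen, Hamp varied widely between mice of the same genotype. The HFCFD8W+T10D controls had 90.6, 309, 230.2, 349 and 17.6 CPM. The knockouts had 41.2, 7.57, 155, 93.6 and 39.1 CPM. The highest mouse was 19.8 times the lowest among controls and 20.4 times among knockouts, whereas in HFCFD2W that ratio was 2.04 and 2.11. The mean went from 199 ± 142 to 67.2 ± 57.8 CPM, 33.7% of control, and the difference was not called (log2 fold change -1.55, SE 0.74, adjusted p 0.171). This was the largest of the 3 Hamp differences and the least precise. Of 7 hepatocyte markers, 2 were called lower in these knockouts, against 6.85% of all genes tested. They were Alb (-0.94, adjusted p 0.0344) and Hnf4a (-0.56, adjusted p 0.0104). The other 5 were not called, with Apob at 0.03, Ahsg at -0.09 and Ttr at 0.53. The summed level, most of which is Alb, was 57168 to 111259 CPM in knockouts and 108150 to 132120 CPM in controls, and its part in the Hamp values was not tested. In the fit that shared 1 spread it was called (adjusted p 0.0447).

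After 10 weeks of tamoxifen, the HFCFD12W+T10W controls had 359.5, 365, 201, 203 and 247 CPM. The knockouts had 204, 29.8, 266, 269 and 124 CPM. Only 1 knockout, at 29.8, stood far below the rest, and the genotypes overlapped. The mean was 275 ± 81.7 CPM in controls and 179 ± 102 CPM in knockouts, 64.9% of control (log2 fold change -0.58, SE 0.43, adjusted p 0.282). Over the 6 groups, Hamp was highest in HFCFD2W controls, followed by HFCFD12W+T10W controls, HFCFD2W knockouts, HFCFD8W+T10D controls, HFCFD12W+T10W knockouts and HFCFD8W+T10D knockouts. Every pair of neighbours in this order overlapped. The genotype effect on Hamp was not shown to differ between experiments, with adjusted p values of the 3 differences from 0.505 to 0.935.

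Hamp2, the neighbouring copy, made up a small share of the Hamp and Hamp2 counts, with group medians from 0.630% to 3.49%. In HFCFD8W+T10D its control level was 1.97, 4.92, 2.78, 4.78 and 1.28 CPM. The knockouts had 0.281, 0, 0.975, 0.593 and 0.475 CPM. All knockouts lay below all controls, and the level fell to 14.8% of control (3.14 ± 1.64 to 0.465 ± 0.363 CPM, log2 fold change -2.78, SE 0.56, adjusted p 0.00573). These are few reads, since controls held 13 to 47 counts and knockouts 0 to 9, and the count of 0 in 1 mouse allows up to 3. In HFCFD2W Hamp2 was 18.2 ± 10.54 CPM in controls and 11.1 ± 7.45 CPM in knockouts (adjusted p 0.279). In HFCFD12W+T10W it was 5.79 ± 5.71 and 2.40 ± 1.52 CPM (adjusted p 0.124). Without HFCFD12W+T10W control mouse 1 or HFCFD2W knockout mouse 5, these became 0.0398 and 0.0451. Hamp2 was thus lower on average in the knockouts of all 3 experiments. Its genotype effect was not shown to differ between them, with edgeR adjusted p values of the 3 differences from 0.185 to 0.613. The coding sequences of the pair are near copies, and how RSEM divided shared reads between them was not given, so the smaller gene is the less certain. With both genes summed, the values stayed close to those of Hamp alone, at -0.73, -1.57 and -0.59 (adjusted p 0.0277, 0.165 and 0.269).

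Bmp6, the ligand, was low throughout and was not called. Its group means ran from 2.01 CPM in HFCFD2W controls to 3.17 CPM in HFCFD12W+T10W knockouts, and all 3 experiments overlapped. The log2 fold changes were 0.48, 0.12 and 0.31 in HFCFD2W, HFCFD8W+T10D and HFCFD12W+T10W (adjusted p 0.249, 0.806 and 0.308).

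Tfr2, the receptor through which hepatocytes sense iron-laden transferrin, fell in the long inducible knockout. The HFCFD12W+T10W controls had 396, 357, 378, 401 and 394 CPM. The knockouts had 209.9, 209.7, 220.3, 233 and 176 CPM. Both genotypes were tight and far apart, from 385 ± 17.9 to 209.9 ± 20.98 CPM, or 54.5% of control (log2 fold change -0.83, SE 0.083, adjusted p 5.2e-06). In the shorter experiments the genotypes overlapped. HFCFD2W had 460.3 ± 17.1 CPM in controls and 453 ± 73.0 in knockouts (adjusted p 0.91), and HFCFD8W+T10D had 351 ± 38.3 and 348 ± 91.0 (adjusted p 0.997). The Tfr2 effect in HFCFD12W+T10W differed from that in HFCFD8W+T10D by -0.86 (SE 0.18, adjusted p 0.00353) and from the HFCFD2W effect by -0.85 (SE 0.18, adjusted p 0.000841). Tfr2 was the 1 member of 10 whose effect differed in each of these contrasts, against 10.5% and 30.7% of genes tested. In the same knockouts 3 of 7 hepatocyte markers were called lower, against 23.8% of all genes tested. They were Alb (-1.10, adjusted p 8.9e-06), Hnf4a (-0.96, adjusted p 2.21e-06) and Fgb (-0.61, adjusted p 0.000403). Apoa1, Apob, Ttr and Ahsg were not called, at -0.03, -0.05, 0.13 and 0.06. The summed level, most of which is Alb, was 51539 to 60031 CPM in knockouts and 90694 to 114208 CPM in controls, and the part of these markers in the Tfr2 result was not tested.

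The BMP target Id1 and the inhibitor Smad7 were not called in the experiments that tested them. In HFCFD2W, where Hamp fell, Id1 was 1.76 ± 1.41 CPM in controls and 1.07 ± 0.463 CPM in knockouts, 61.0% of control, with no test. Its log2 fold changes were 0.04 in HFCFD8W+T10D and 0.41 in HFCFD12W+T10W (adjusted p 0.95 and 0.303). Smad7 in HFCFD2W was 3.12, 4.30, 4.43, 3.59 and 2.84 CPM in controls. The knockouts had 2.25, 3.48, 2.16, 2.56 and 2.55 CPM, and 4 of the 5 lay below every control. The difference of -0.49 (SE 0.20) was not called (adjusted p 0.116), and Smad7 differed by 0.07 and 0.10 in the other experiments (adjusted p 0.885 and 0.653). By group means Smad7 was highest in HFCFD12W+T10W, at 7.40 ± 1.70 CPM in controls and 7.72 ± 1.44 CPM in knockouts. The lowest of those controls, at 6.20 CPM, lay above every mouse of the other experiments, while the lowest knockout, at 5.73 CPM, lay below the highest HFCFD8W+T10D control, at 6.14 CPM.

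Slc40a1, which encodes ferroportin, was not called in any experiment. In HFCFD8W+T10D the controls had 201.3, 236, 234, 207 and 176 CPM. The knockouts had 201.2, 327, 299, 228 and 269 CPM. Of the 5 knockouts, 3 lay above all controls (log2 fold change 0.35, SE 0.14, adjusted p 0.121). In HFCFD2W the difference was 0.24 (SE 0.11, adjusted p 0.143) and in HFCFD12W+T10W it was -0.16 (SE 0.12, adjusted p 0.304). Macrophages hold much of the liver's ferroportin, and of 10 Kupffer cell and macrophage markers, 4, 6 and 6 were called higher in HFCFD2W, HFCFD8W+T10D and HFCFD12W+T10W. The shares of all genes called higher in these experiments were 8.6%, 10.3% and 27.4%. In HFCFD12W+T10W 2 of the list were called lower, Timd4 (-2.72) and Marco (-2.35). The list's summed level in HFCFD8W+T10D was 718 to 1321 CPM in controls and 1244 to 2451 CPM in knockouts, and its part in the Slc40a1 values was not tested.

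Tfrc, the transferrin receptor by which cells take up iron, ranged widely in the inducible knockouts. In HFCFD8W+T10D the controls had 48.4, 38.4, 22.9, 15.5 and 39.2 CPM. The knockouts had 83.8, 128, 31.6, 18.9 and 33.9 CPM. The genotypes overlapped, since 2 knockouts were far above and the other 3 within the controls' range. The difference of 0.87 (SE 0.46) was not called (adjusted p 0.224). In HFCFD12W+T10W the controls had 26.2 to 54.2 CPM and the knockouts 28.003 to 81.5 CPM (log2 fold change 0.47, SE 0.31, adjusted p 0.228). In HFCFD2W the means were 34.0 ± 5.34 and 32.8 ± 15.003 CPM (adjusted p 0.911). Erythroid precursors carry Tfrc at high levels. Of 5 erythroid markers tested in HFCFD8W+T10D, 4 were called higher, all of them globins, against 10.3% of all genes tested. The summed erythroid markers of those knockouts were 1046, 1118, 2032, 602 and 357 CPM in the order of the Tfrc values, against 320.03 to 556 CPM in controls. The 2 mice with high Tfrc had the second and the third highest sums, and the part of these markers in the Tfrc values was not tested.

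Mouse by mouse, Tfrc tended to be high where Hamp was low. Each gene's log2 CPM was taken relative to its group mean, so that genotype and experiment do not enter, and the relation of Hamp to each of the other 9 members was tested by permutation within groups, two-sided. For Tfrc over the 30 mice, Pearson's r was -0.63 (p 0.00324, adjusted over 9 relations 0.0146) and Spearman's rho was -0.60 (p 0.00366, adjusted 0.0282). Within experiments r was -0.34 in HFCFD2W (p 0.39), -0.69 in HFCFD8W+T10D (p 0.0299) and -0.66 in HFCFD12W+T10W (p 0.0538), each by permutation over 10 mice. Without the 2 mice farthest from the median of Hamp (HFCFD8W+T10D control 5 and knockout 2), r was -0.57 (p 0.00718, adjusted 0.0646). The direction held in each of these subsets. With any 1 mouse left out the adjusted p stayed between 0.0072 and 0.0429, and it missed 0.05 without both outlying mice. The adjustment covers only these 9 relations, and the share of all genes with an r this far from 0 was not computed. Genes outside the lists reached an r with Hamp of 0.81 (Aspg) and 0.80 (Mfsd4b1) on the same scale. The part of cell content in the relation of Tfrc to Hamp was not tested.

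**Figure D3:**
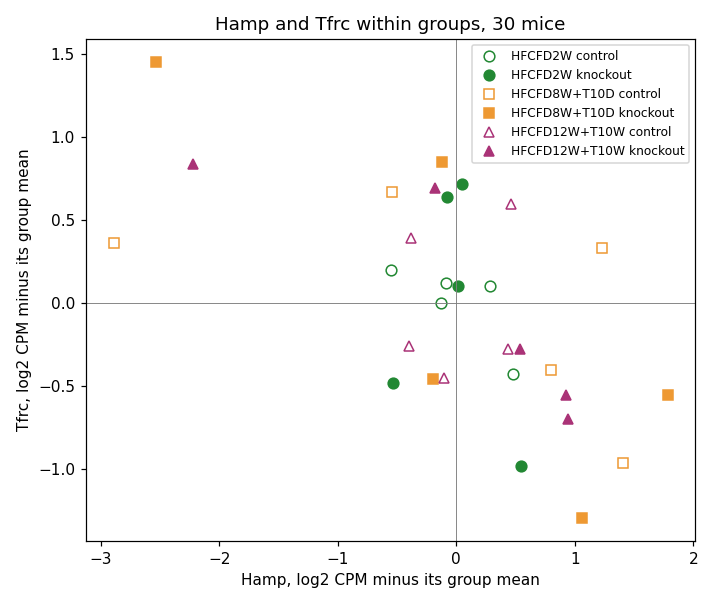
Each point is 1 of 30 mice, with Hamp on the horizontal axis and Tfrc on the vertical axis, both as log2 CPM minus the group mean, with open symbols for controls and filled for knockouts. The points run from upper left to lower right (Pearson's r -0.63), and 3 mice lie more than 2 units below their group mean of Hamp, all 3 with Tfrc above its group mean.

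Hamp2 varied with Hamp (r 0.54, p 0.00127, adjusted 0.0114, and rho 0.50, p 0.00627, adjusted 0.0282). This rested on HFCFD8W+T10D, where r was 0.95 (p 0.00035), against 0.44 (p 0.236) in HFCFD2W and 0.32 (p 0.336) in HFCFD12W+T10W, and without the 2 outlying mice it was 0.42 (p 0.0314, adjusted 0.141). Tfr2 had an r of 0.54 (p 0.0176, adjusted 0.0529) and a rho of 0.43 (p 0.0438, adjusted 0.131), which went to 0.24 without those mice. Bmp6 had an r of 0.44 (p 0.0257, adjusted 0.0579) and a rho of 0.34 (p 0.0794, adjusted 0.179). For Slc40a1, Id1, Smad7, Fth1 and Ftl1, r lay between -0.08 and 0.25, with adjusted p from 0.51 to 0.967. Without the outlying mice the r of Slc40a1, whose protein hepcidin removes, was 0.46 (p 0.048, adjusted 0.144).

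The mouse with the lowest Hamp of all, HFCFD8W+T10D knockout 2 at 7.57 CPM, was singled out after its values were seen. It also had the highest Tfrc (128 CPM) and Slc40a1 (327 CPM) of the 30 mice and no Hamp2 count. Its summed hepatocyte markers, most of which are Alb, were the lowest of its experiment (57168 CPM), and its summed Kupffer cell and macrophage markers the highest (2451 CPM).

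The ferritin chains, which together form the iron storage shell, were both higher on average after 10 days of tamoxifen. Fth1, the ferroxidase chain, had 1422, 1612, 1191, 1239 and 1447 CPM in HFCFD8W+T10D controls. The knockouts had 1727, 1892, 1996, 2379 and 1502 CPM. Of the 5 knockouts, 4 lay above every control, and the mean went from 1382 ± 170.2 to 1899 ± 326 CPM (log2 fold change 0.47, SE 0.15). The adjusted p was 0.0521, just short of the threshold, and it was 0.0139 by DESeq2, 0.0396 with upper quartile scaling and 0.00275 in the fit that shared 1 spread, but 0.117 without a filter on low counts and 0.101 by limma. In HFCFD2W Fth1 was -0.17 (SE 0.084, adjusted p 0.196) and in HFCFD12W+T10W 0.03 (SE 0.098, adjusted p 0.838). The Fth1 effect in HFCFD8W+T10D exceeded that in HFCFD2W by 0.63 (SE 0.16, adjusted p 0.00935). It was the 1 member of 10 called in this contrast, against 11.2% of genes tested.

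Ftl1, the light chain, could not be read from its own row. Mouse genomes hold near copies of Ftl1, and RSEM, which divides reads that fit several genes, put counts on Ftl1 itself, Ftl1-ps1 (chr13:74399694-74407346, protein coding in GENCODE M21) and the pseudogenes Ftl2-ps and Ftl1-ps2. The Ftl1 share of these counts fell into 3 narrow classes, 13.7% to 14.7% in 3 libraries, 57.8% to 60.6% in 20 and 98.7% to 98.9% in 7. The low class held 1 library each of HFCFD2W knockout 4, HFCFD8W+T10D control 4 and HFCFD12W+T10W control 2. In those libraries the Ftl1 row was at 624, 387 and 371 CPM, below every other library.

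**Figure D4:**
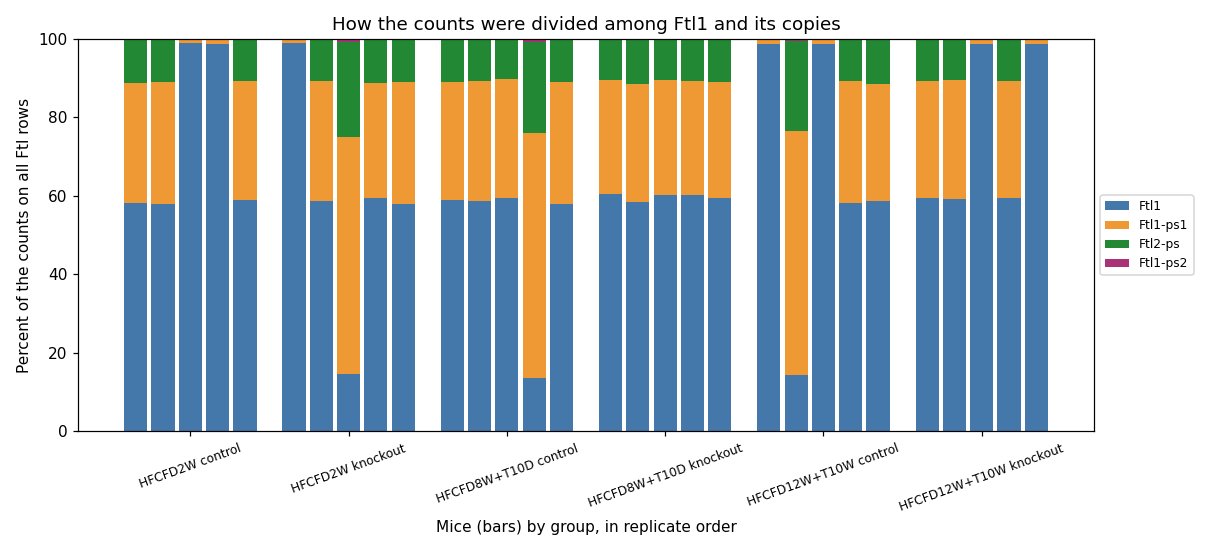
Each bar is 1 mouse, grouped by experiment and genotype, and the stacked colours give the percent of all Ftl counts placed on Ftl1, Ftl1-ps1, Ftl2-ps and Ftl1-ps2. Ftl1 (blue) takes about 59% in most bars, nearly all in 7 bars, and 13.7% to 14.7% in 3 bars.

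With all Ftl rows summed, the spread within groups shrank and the light chain gave a steadier value. In HFCFD8W+T10D the controls had 3525, 3231, 2580.1, 2825 and 2814 CPM. The knockouts had 4037, 3880.2, 4741, 4955 and 3518 CPM. Only the lowest knockout lay within the control range, and the sum rose to 141% of control (log2 fold change 0.51, SE 0.16, adjusted p 0.0435), whereas the Ftl1 row alone gave 0.76 (SE 0.33, adjusted p 0.138). In HFCFD2W the sum differed by 0.01 (SE 0.082, adjusted p 0.975), where the row alone gave -0.37 (SE 0.33, adjusted p 0.481). In HFCFD12W+T10W it differed by 0.10 (SE 0.12, adjusted p 0.522), against 0.21 (SE 0.44, adjusted p 0.719) for the row. The summed effect in HFCFD8W+T10D exceeded that in HFCFD2W by 0.49 (SE 0.16, adjusted p 0.0471). Kupffer cells and macrophages are rich in ferritin, and their markers were higher in the same knockouts, as given for Slc40a1. Their part in the ferritin values was not tested.

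TPM values, which are not rescaled between libraries, shifted the median of all genes upward in knockouts by 0.12, 0.23 and 0.37 on the log2 scale in HFCFD2W, HFCFD8W+T10D and HFCFD12W+T10W. Relative to that shift, Tfr2 in HFCFD12W+T10W was at -0.83 and Fth1 in HFCFD8W+T10D at 0.45, close to the values on the CPM scale. As deposited, the Tfr2 level there was 172 ± 5.99 TPM in controls and 125 ± 9.85 TPM in knockouts, 72.9% of control and still without overlap.

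Around the members, 63 other genes of iron and heme handling were chosen for function in 4 lists, and 60, 60 and 61 were tested in HFCFD2W, HFCFD8W+T10D and HFCFD12W+T10W. The HFCFD2W knockouts had 5 of them higher and 12 lower (28.3% called, against 16.7% of all genes, of which 8.6% were higher). After 10 days of tamoxifen there were 2 higher and 5 lower (11.7% against 17.1%, with 10.3% higher). After 10 weeks there were 7 higher and 21 lower (45.9% against 51.1%, with 27.4% higher). Their median log2 fold change was -0.04, -0.05 and -0.16, beside 0.01 for all genes in each experiment.

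Of the 24 genes of hepcidin control tested in HFCFD2W, where Hamp fell, 3 were higher and 6 lower (37.5% called, against 16.7% of all genes). Those lower included BMP targets, the transcriptional inhibitors Id2 (60.6 ± 21.3 to 19.9 ± 6.40 CPM, log2 fold change -1.59, adjusted p 0.000794) and Id3 (-1.10, adjusted p 0.0134) and the inhibitory Smad6 (-1.53, adjusted p 0.0199). The BMP receptor Acvr1 was also lower (-0.51, adjusted p 0.0495), though leaving out 1 mouse ended its call in 8 of 10 fits. Higher were the interleukin-6 receptor Il6ra (0.92, adjusted p 0.00458) and the growth factor receptor Egfr (0.70, adjusted p 0.0104). The Id2 effect differed in HFCFD8W+T10D (by 1.51, adjusted p 0.00828) and in HFCFD12W+T10W (by 1.68, adjusted p 0.00116), and those of Id3 and Smad6 in HFCFD12W+T10W (by 1.25 and 1.67, adjusted p 0.0134 and 0.0169).

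Of the same 24 genes, 0 were higher and 3 lower in HFCFD8W+T10D (12.5% called, against 17.1%), namely Egfr (-1.76, adjusted p 0.000105), the BMP effector Smad9 (-1.64, adjusted p 0.00492) and the receptor Acvr2a (-0.34, adjusted p 0.0379), whose call was lost in 7 of 10 fits with 1 mouse left out. After 10 weeks of tamoxifen 2 rose and 8 fell (41.7% called, below the 51.1% of all genes), among them Egfr (-1.57, adjusted p 0.00881), the hepatokine Fgl1 (-1.13, adjusted p 0.00278), Il6ra (-1.09, adjusted p 2.29e-05) and Acvr2a (-0.50, adjusted p 0.000342). Egfr and Il6ra were thus higher in the constitutive knockout and lower after 10 weeks of tamoxifen, and the effects differed by -2.31 (adjusted p 0.000362) and -2.04 (adjusted p 1.03e-06). Of 12 acute phase markers, 0 were higher and 5 lower in HFCFD12W+T10W, beside 27.4% and 23.8% of all genes. In HFCFD2W the counts were 0 and 0 (8.6% and 8.09% of all genes), and in HFCFD8W+T10D 1 and 0 (10.3% and 6.85%).

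Of 13 uptake genes tested in HFCFD2W, 2 were higher and 1 lower (23.1% called, against 16.7% of all genes). The higher ones were the hemoglobin scavenger receptor Cd163 (0.91, adjusted p 0.00182) and the ferrireductase Steap4 (0.85, adjusted p 0.0178). In HFCFD8W+T10D, 1 of 13 was higher (7.69%, against 17.1%), the siderophore binder Lcn2 (2.20, adjusted p 0.0451), whose knockouts ranged widely (330.4 ± 413 CPM) and whose call was lost in 8 of 10 fits with 1 mouse left out. After 10 weeks of tamoxifen, 2 of 14 were higher and 4 lower (42.9%, against 51.1%). Steap4 was higher (0.24, adjusted p 0.0476, lost in 8 of 10 such fits) and so was lactoferrin, Ltf, which went from 0.249 ± 0.174 to 4.24 ± 4.25 CPM (adjusted p 0.00115). Cd163 fell from 25.2 ± 11.97 to 2.06 ± 1.70 CPM (-3.58, adjusted p 3.72e-05), and its effect was further down than in HFCFD2W by -4.52 (adjusted p 7.58e-07). In HFCFD12W+T10W, 6 of 10 Kupffer cell and macrophage markers were higher and 2 lower, against 27.4% and 23.8% of all genes tested.

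Among 8 tested genes of export, storage and sensing, Ireb2, which encodes iron regulatory protein 2, was the 1 gene of the 63 called lower in all 3 experiments. It differed by -0.37 in HFCFD2W (106 ± 6.00 to 81.8 ± 11.8 CPM, adjusted p 0.0195), by -0.63 in HFCFD8W+T10D (78.5 ± 8.44 to 50.2 ± 9.15 CPM, adjusted p 0.00509) and by -0.56 in HFCFD12W+T10W (91.4 ± 12.8 to 59.9 ± 7.85 CPM, adjusted p 0.000952). The genotypes did not overlap in any of them, as for 12.5%, 11.5% and 39.1% of all genes tested. The shares of all genes called lower were 8.09%, 6.85% and 23.8%, and the share called lower in all 3 experiments was not computed. Across the list, 0 genes were higher and 2 lower in HFCFD2W, 0 and 1 after 10 days of tamoxifen, and 1 and 4 after 10 weeks. These are 25%, 12.5% and 62.5% of the 8 genes, beside 16.7%, 17.1% and 51.1% of all genes. The gene higher in HFCFD12W+T10W was the ferroxidase Heph, from 2.55 ± 0.704 to 7.12 ± 1.33 CPM (1.51, adjusted p 4.28e-05).

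Of 15 heme genes, 0 were higher and 3 lower in HFCFD2W, 1 and 1 after 10 days of tamoxifen, and 2 and 5 after 10 weeks. The shares called were 20%, 13.3% and 46.7%, near or below the 16.7%, 17.1% and 51.1% of all genes. The pathway enzyme Alad was lower in HFCFD2W (-0.44, adjusted p 0.0125) and in HFCFD12W+T10W (-0.48, adjusted p 0.00194). Cpox, a later step, was lower in HFCFD8W+T10D (-0.47, adjusted p 0.00717) and HFCFD12W+T10W (-0.39, adjusted p 0.00148). Blvrb, a biliverdin reductase, was higher in the same experiments (0.73 and 0.34, adjusted p 0.00375 and 0.0171), as was the heme exporter Flvcr1 in HFCFD12W+T10W (0.59, adjusted p 0.0143).

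**Figure D5:**
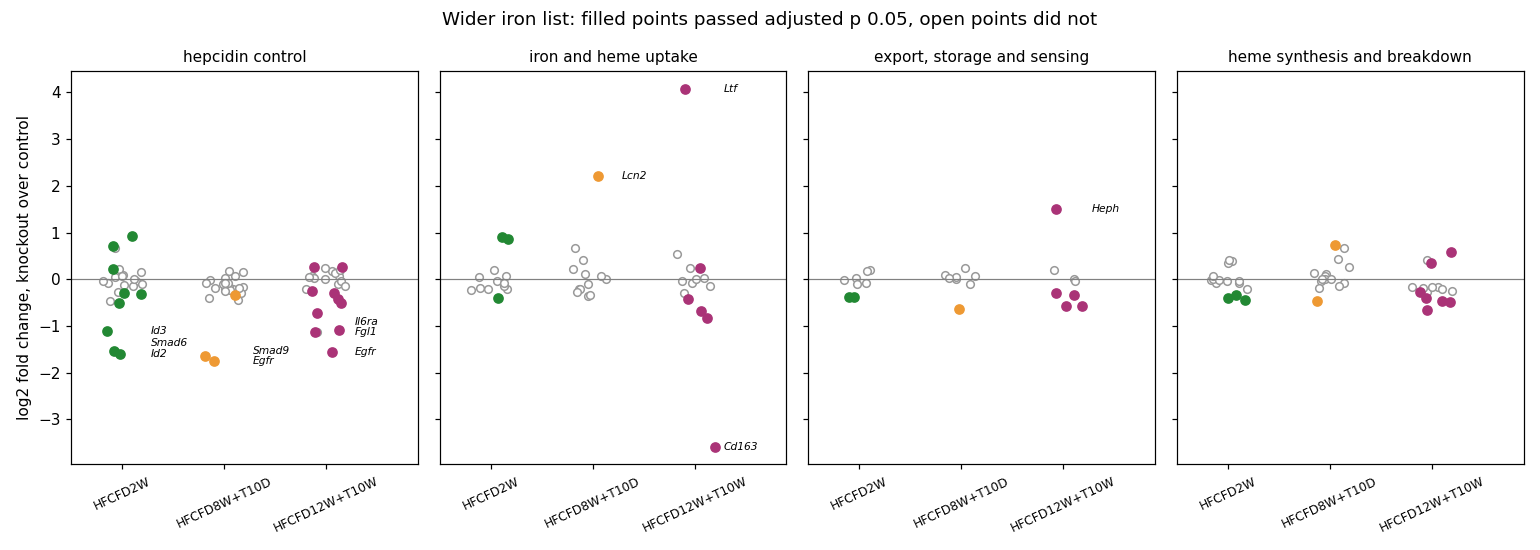
Each panel is 1 of the 4 lists and each point 1 gene, with the log2 fold change of knockout over control on the vertical axis and the 3 experiments along the horizontal axis. Filled points passed the adjusted p of 0.05 and names are given beyond 1 log2 unit. Cd163 is the lowest point (-3.58), and the fold of Ltf, the highest, rests on controls near 0.249 CPM.

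As a description, the genes with levels most like Hamp were ranked by Pearson's r among 12105 genes with a mean of at least 1 CPM. Over all 30 libraries these were the actin binder Cnn3 (0.79), the growth hormone receptor Ghr (0.78), Hamp2 (0.78), the circadian regulator Tef (0.75) and Erg28 (0.75). After group means were subtracted they were Aspg (0.81), Mfsd4b1 (0.80), the apolipoprotein gene Apoa5 (0.73), Ghr (0.71) and the adenylate kinase gene Ak4 (0.71). The libraries share genotypes, experiments and hepatocyte content, and Ghr was the gene on both lists.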

How the data were processed

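The authors trimmed, aligned and counted stranded poly(A) reads. The processing notes name Trimmomatic 0.36, STAR 2.5.1, Picard 1.84, RSEM 1.2.22, DESeq2 (version not given in the sources used here) and the mm10 build. The authors deposited RSEM expected counts for 55450 genes and TPM values per library, and a TMM-normalized signal table of 15010 genes, used for 1 alternative. An RPKM table was not used. Expected counts were rounded, since 3.25% were not whole. Knockouts were compared with controls within each experiment by edgeR 4.0.16 (R 4.3.3) with filterByExpr and TMM, called at adjusted p 0.05. One fit of all 6 groups tested differences between experiments. Relations to Hamp used 100000 permutations within groups and a prior count of 2 on the log2 scale. Steps were tested on simulated data. The labels call samples biological replicates. Same-numbered mice did not clearly deviate together (r -0.324 to 0.217), so the numbers were not used as pairs. With so few mice this cannot exclude a shared litter or batch. The HFCFD2W knockouts are numbered 2 to 6 in the labels. Alternatives were DESeq2 1.42.0, limma 3.58.1, upper quartile scaling, no filter, a joint fit, a replicate block, summed copies and leaving out each mouse.

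The members and lists were chosen with earlier results of these data known. Named were all members, listed genes called in 2 or more experiments, the 4 listed genes with the largest called change in each direction per experiment, and the 5 genes most like Hamp. One listed gene that met this rule is not reported here. Sequences came from RefSeq (GRCm38.p6) and GENCODE M21. Intervals of counts and floors cover counting error only. Motif windows were the 250 bases before a RefSeq start.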

Additional observations from a re-analysis of the deposited data

Results flagged for a closer look

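In the groups of 5 mice, 66 sets of values (the 10 members and the summed light chain, in 6 groups) were searched for a mouse whose gap to the next was large for the group's range (Dixon's critical value). There were 2 such values, and chance gives about 1 in 20 groups. Hamp2 was at 24.1 CPM in HFCFD2W knockout 5, with the next mouse at 10.1 CPM. Fth1 was at 1174 CPM in HFCFD2W control 3, with the next mouse at 1377 CPM.

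Genotype effects differed between experiments for Fth1, HFCFD8W+T10D minus HFCFD2W (0.63, or 0.63 with its copies summed). For HFCFD12W+T10W minus HFCFD8W+T10D, the Fth1 effect lay at the threshold (-0.47). It was not called from the Fth1 row (adjusted p 0.0501 by edgeR) and was called with copies summed (adjusted p 0.0492). All Fth counts lay on the Fth1 row, so these 2 fits differ only in that the Ftl rows were merged in the second. The light chain with its copies differed between HFCFD8W+T10D and HFCFD2W (0.49). For Tfr2 the effect in HFCFD12W+T10W was below that in HFCFD8W+T10D (-0.86) and in HFCFD2W (-0.85), with control levels of 351 to 460.3 CPM in the 3 experiments.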

How the results depend on the processing

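Most values kept their direction and side of the threshold, and the cause of each change below was not tested. In HFCFD2W, members called fell from 1 to 0 in the joint fit of all libraries, with limma on the deposited values and with a fold over 2. The Hamp log2 fold change, HFCFD2W, was then -0.73 (joint, adjusted p 0.443) and -0.72 (limma, adjusted p 0.0544). The wider list had 10 called (joint), 6 (replicate block) and 3 (fold over 2). In HFCFD8W+T10D, members called were 2 with DESeq2, upper quartile scaling or summed ferritin copies and 3 in the joint fit (Hamp -1.57, adjusted p 0.0447), and the wider list had 11 (DESeq2), 14 (joint) and 3 (fold over 2). In HFCFD12W+T10W a fold over 2 left 0 members and 6 listed genes. Members whose effect differed between experiments numbered 0 with the replicate block and 2 with summed ferritin (HFCFD8W+T10D minus HFCFD2W), 2 with DESeq2 and 2 with summed ferritin (HFCFD12W+T10W minus HFCFD8W+T10D), and 2 with the block (HFCFD12W+T10W minus HFCFD2W). Relations to Hamp past the threshold numbered 0 without the 2 outlying mice, 0 within HFCFD2W, 1 within HFCFD8W+T10D, 0 within HFCFD12W+T10W and 1 with Hamp and Hamp2 summed. Values near 0 changed sign. The Tfr2, log2 fold change, HFCFD8W+T10D, was -0.0124 without a filter, -0.0166 with DESeq2, -0.0120 in the joint fit, -0.0303 with the block and -0.0523 with limma, and Id1 there -0.00834 with limma. Fth1 in HFCFD12W+T10W was -0.0152 (joint) and -0.0255 (limma), and Ftl1 in HFCFD2W 0.00575 with copies summed. The difference of Tfr2 effects (HFCFD8W+T10D minus HFCFD2W) was -0.00558 without a filter. With the block, differences were -0.0410 (Slc40a1, the same contrast), -0.00985 (Smad7, HFCFD12W+T10W minus HFCFD8W+T10D) and -0.0520 (Hamp, HFCFD12W+T10W minus HFCFD2W). The r with Hamp was 0.15 for Id1 without the 2 mice. Within HFCFD2W it was -0.00914 (Tfr2), 0.58 (Id1), -0.47 (Smad7), -0.0366 (Fth1) and 0.0377 (Ftl1), within HFCFD8W+T10D -0.0220 (Smad7), within HFCFD12W+T10W 0.17 (Id1), -0.15 (Fth1) and 0.0028 (Ftl1), and 0.27 for Ftl1 with copies summed. As TPM ratios, HFCFD2W Tfr2, Smad7 and Tfrc were 0.0891, 0.14 and 0.0289, and HFCFD12W+T10W Slc40a1 0.22. Leaving out 1 mouse at a time, the HFCFD2W counts ran from 0 to 2 members and 13 to 16 listed genes, the HFCFD8W+T10D counts from 1 to 2 and 5 to 10, and the HFCFD12W+T10W counts from 1 to 2 and 23 to 31. Relations to Hamp past the threshold ran from 2 to 4, and members with differing effects from 1 to 3. Hamp in HFCFD2W ran from -0.890 to -0.598. Ranges that crossed 0 were, in HFCFD2W, Tfr2 -0.0989 to 0.0499 and Tfrc -0.257 to 0.129, in HFCFD8W+T10D, Tfr2 -0.128 to 0.111, Id1 -0.153 to 0.283 and Smad7 -0.0378 to 0.207, and in HFCFD12W+T10W, Fth1 -0.0340 to 0.101 and Ftl1 -0.0778 to 0.441. For differences between experiments they were Tfr2 -0.116 to 0.135 (HFCFD8W+T10D minus HFCFD2W), Bmp6 -0.0118 to 0.334, Smad7 -0.108 to 0.169 and Tfrc -0.654 to 0.0813 (HFCFD12W+T10W minus HFCFD8W+T10D), and Hamp -0.0577 to 0.410 and Hamp2 -0.913 to 0.225 (HFCFD12W+T10W minus HFCFD2W). For r with Hamp they were Id1 -0.117 to 0.109, Smad7 -0.0742 to 0.188, Fth1 -0.104 to 0.0844 and Ftl1 -0.144 to 0.0684. Depth limits Hamp2, Id1, Smad7 and Bmp6, with 105 counts or fewer per library for the last 3. Whether same-numbered mice were pairs was not given, so what a call lost under the replicate block means cannot be told.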

Other observations

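Alas2, the erythroid form of the first enzyme of heme synthesis, was not a member and was noticed after its values were seen. It was higher in HFCFD2W controls (178 ± 10.2 CPM) than in their knockouts (80.4 ± 7.98 CPM, log2 fold change -1.14, adjusted p 1.72e-06 by edgeR). It was also lower in the HFCFD12W+T10W knockouts (43.3 ± 14.7 to 17.9 ± 4.01 CPM, -1.22, adjusted p 0.000753), and went from 36.3 ± 13.4 to 17.5 ± 8.42 CPM in HFCFD8W+T10D (adjusted p 0.0505). The globin gene Hba-a1 moved the other way there, from 55.4 ± 9.75 to 148 ± 97.8 CPM (adjusted p 0.0159), and was at 92.5 ± 50.01 and 52.4 ± 27.5 CPM in HFCFD2W (adjusted p 0.19).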
